A study of Mus musculus with 3 samples.

Results

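The genes described here are the numbered Sox, forkhead (Fox), Gata and T-box (Tbx) genes of the mouse, with the exception of Sox7, Sox17, Foxa2, Gata3, Gata4, Gata6, Tbx3 and Tbx6, which were left out by name. The rule uses gene symbols and no measured value, but it was drawn up with earlier results of these data known. A gene was counted when its locus was listed under that symbol and no other. In this way 50 of the 26366 genes listed under a single name were members, and 49 of them were so listed in all 3 samples. The members were 12 Sox, 24 forkhead, 3 Gata and 11 T-box genes.

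RNA-seq was performed on mouse embryonic stem (ES) cells of strain C57BL/6, with 1 sample for each of 3 conditions, so that differences could not be checked against replicates and no test was made. The conditions were wild-type cells (WT), cells in which both copies of Pcgf1 were disrupted with Cas9 (labelled Pcgf1KO, here Pcgf1-/-), and such cells that received FLAG-tagged Pcgf1 by lentivirus (labelled Pcgf1KO+ Pcgf1_flag, here Pcgf1-/-+Pcgf1). According to the methods of the study, the knockout removed sequence in exons 2 and 3 and the knockout cells were raised from single colonies, so clone and genotype cannot be told apart. All cells were grown in serum with leukemia inhibitory factor on mitomycin-C-treated mouse embryonic fibroblasts, and poly-A RNA was sequenced. The comparison of WT with Pcgf1-/- asks which transcripts depend on Pcgf1, and the third sample asks which of them move when Pcgf1 is supplied again. The unit is FPKM, fragments scaled to transcript length and to the number of mapped fragments, so levels can be compared between genes of different length. The total depth of the libraries is unknown.

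The 4 families are defined by their DNA-binding domains. Sox proteins carry an HMG box related to that of Sry, forkhead proteins a winged helix, Gata proteins zinc fingers that bind GATA sites, and T-box proteins the domain first known from Brachyury. Most of these genes act in the specification of lineages after the ES cell stage, and many of their promoters in ES cells lie in CpG islands that carry Polycomb marks. Pcgf1 is the subunit that defines the variant Polycomb complex PRC1.1, in which Kdm2b binds unmethylated CpG-rich DNA and Ring1B ubiquitinates histone H2A. The forkhead proteins Foxo and Foxk are broad regulators of metabolism and growth, and Foxh1 and Sox2 are known to act in pluripotent cells themselves.

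Pcgf1 was listed at 13.95 FPKM in WT, 5.88 FPKM in Pcgf1-/- and 7.86 FPKM in Pcgf1-/-+Pcgf1. This value covers every exon of the gene, also those outside the deleted part, and it is not a direct measure of the deletion. Of 10 ES cell markers, 9 were listed singly in all samples, and their summed level was 2156 FPKM in WT, 2111 FPKM in Pcgf1-/- and 1952 FPKM in Pcgf1-/-+Pcgf1. None of the 9 passed 2-fold against WT in either other sample. Between Pcgf1-/-+Pcgf1 and Pcgf1-/-, 1 was higher and 0 lower. It was Nanog, at 68.2, 46.3 and 123.0 FPKM, with a log2 ratio of 1.41 after addition of 0.1 FPKM. Fibroblast markers, which feeder cells would supply, were present as well. Of 24 such markers 20 were listed in all samples, with sums of 140.7, 95.1 and 106.6 FPKM, and 5 of the 18 above 0 were more than 2-fold lower and 0 higher in Pcgf1-/- than in WT. Among them Postn and Fap were listed at 0 in all samples, and Col1a1 was at 1.88, 0.390 and 2.21 FPKM. Some markers were higher in Pcgf1-/- than in WT, within the limit. Dcn was at 0.352 and 0.779 FPKM, Twist1 at 2.09 and 3.19, and Loxl1 at 1.41 and 1.80. Their log2 ratios were 0.96, 0.59 and 0.33. Most of each sum came from Fn1, at 110.1, 75.7 and 74.9 FPKM, and Thy1 was at 14.2, 6.39 and 13.5 FPKM. The sums therefore describe mainly these genes. In such bulk RNA, fewer cells of a type and less RNA per cell cannot be told apart. An FPKM of 0 was listed for 62.6%, 63.6% and 62% of the rows of the WT, Pcgf1-/- and Pcgf1-/-+Pcgf1 samples. A 0 in a list without counts can be an estimate that failed, and a value of 0 is therefore given only as listed at 0.

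In total 41 members were above 0 in at least 1 sample, and 30 in all 3. In WT 35 members (71.4% of those listed, against 51.6% of all genes) were above 0. In Pcgf1-/- there were 33 (67.3% against 49.8%) and in Pcgf1-/-+Pcgf1 37 (74% against 52.9%). The 37 include Sox2, which has no value in the other samples. A level of at least 1 FPKM in any sample was reached by 22 members, and 19 others stayed below it. These 22 were 13 of the 24 forkhead genes, 5 of the 12 Sox genes, 1 of the 3 Gata genes and 3 of the 11 T-box genes. The 9 members listed at 0 in every sample were Foxa1, Foxa3, Foxb1, Foxi1, Foxn1, Foxo6, Sox12, Sox14 and Sox18.

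A further 24 annotated genes of the same name patterns were not members. Of these, 5 lay in loci listed under several names in at least 1 sample, among them Foxj2, Foxm1, Foxp1 and Foxp3. The other 19 are not analysed here. Of them 18 have a single exon in every GENCODE transcript, namely Foxb2, Foxc1, Foxc2, Foxd1, Foxd2, Foxd3, Foxd4, Foxe1, Foxe3, Foxl1, Foxl2, Foxq1, Foxs1, Sox1, Sox3, Sox4, Sox11 and Sox21, and the remaining gene is Foxf1. The counts over the families therefore cover mainly genes with introns, and Sox2 was the only single-exon member.

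**Figure D1:**
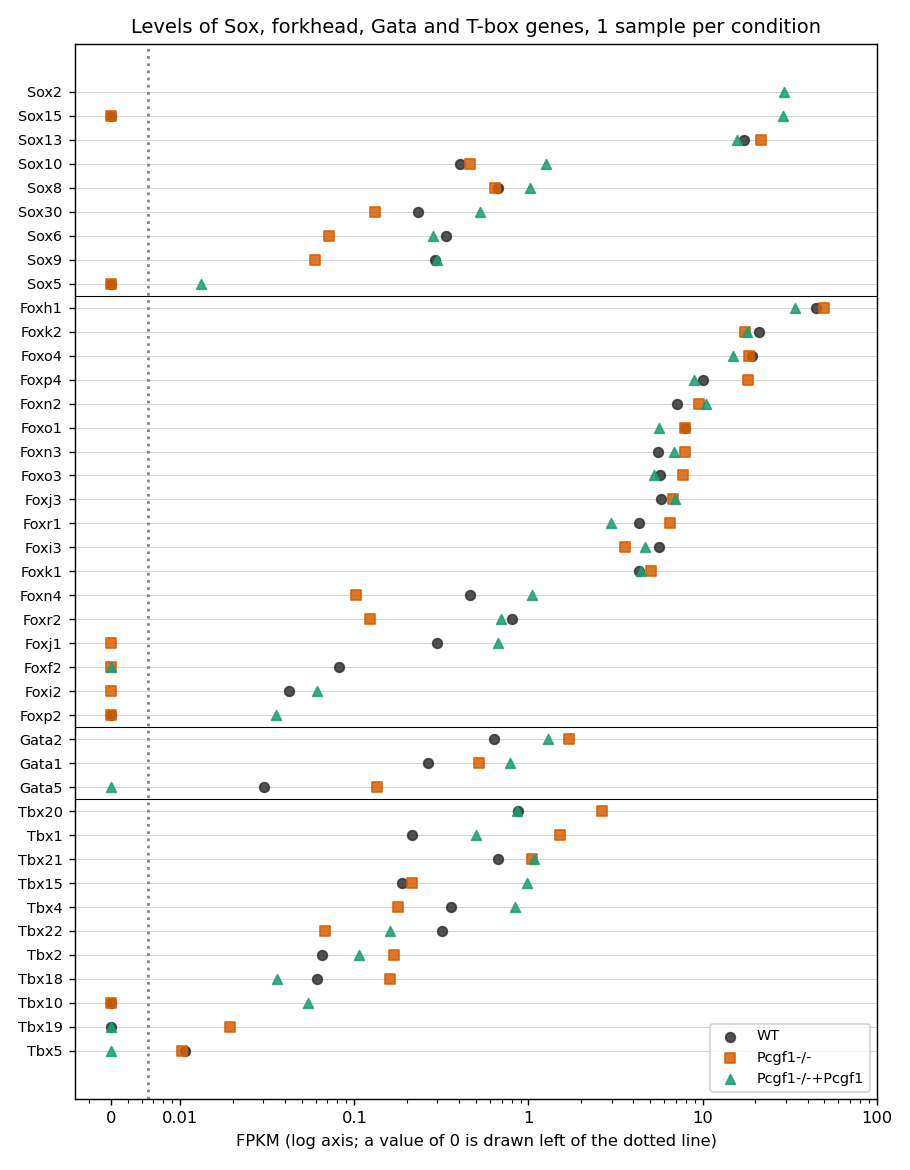
Level of each of the 41 members above 0 in any sample, in FPKM on a log axis, with 1 point for each of the 3 samples and values of 0 left of the dotted line. The 12 highest forkhead genes lie between 2.98 and 49.4 FPKM in every sample, whereas no Gata or T-box gene exceeds 2.66 FPKM. Sox2 has a point for Pcgf1-/-+Pcgf1 alone because its locus carried several names in the other samples.

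Promoter sequences were available from RefSeq (GRCm38.p6, the coordinates of mm10) for 36 of the 50 members. Since PRC1.1 is recruited to CpG-rich DNA, the CG dinucleotides in the 250 bases before each start were counted. For a member with several RefSeq starts, the one nearest to a listed first exon was taken, and of equally near ones that with more CG. The figures over all promoters keep every RefSeq start, also several of 1 gene, so the sets are not alike. The start taken was not always one listed here. For Sox5 it lay 262374 bases from the nearest listed first exon above 0. The distance was 1930 bases for Tbx1, 364 for Foxr1, 330 for Gata2 and 277 for Sox15. Sox5, with 3 CG, is counted below among the members above 0 but below 1 FPKM. The motif searched was CG, which reads the same on both strands. It occurred in 92.1% of all 32851 promoters and in 100% of the members' promoters. The median number was 6 over all promoters and 17.5 over the members. It was 22 for the 17 members that reached 1 FPKM, 6 for the 13 members above 0 but below 1 FPKM, and 19.5 for the 6 members listed at 0. A count of at least 10 was found in 37.8% of all promoters and in 66.7% of the members' promoters. By level it was 88.2% for the members that reached 1 FPKM, 38.5% for those above 0 but below 1 FPKM, and 66.7% for those listed at 0. These counts describe sequence only, and no binding was measured in these files.

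The following promoters are shown for the range of CG content among expressed members and for the genes whose level or start differed between the samples. Capitals mark CG, and each sequence is on the strand of its gene. Foxk2 (chr11:121259737-121259986, plus strand) had the most of any member, with 48 CG, and only 0.186% of all promoters hold as many or more. Foxn3 (chr12:99450075-99450324, minus strand) had 5 CG before its first start, which held 44.5% of the Foxn3 FPKM in WT, 24.4% in Pcgf1-/- and 54.9% in the re-expressing sample. A downstream start held most of the remainder. Tbx20 (chr9:24774304-24774553, minus strand) had 22 CG and a higher level in Pcgf1-/-. Foxn4 (chr5:114273762-114274011, minus strand) had 17 CG and a lower level in Pcgf1-/-. Sox6 (chr7, minus strand) was listed from an upstream start with 10 CG (116031048 to 116031297) in Pcgf1-/- and Pcgf1-/-+Pcgf1, and mainly from a downstream start with 2 CG (115995087 to 115995336) in WT.
Foxk2: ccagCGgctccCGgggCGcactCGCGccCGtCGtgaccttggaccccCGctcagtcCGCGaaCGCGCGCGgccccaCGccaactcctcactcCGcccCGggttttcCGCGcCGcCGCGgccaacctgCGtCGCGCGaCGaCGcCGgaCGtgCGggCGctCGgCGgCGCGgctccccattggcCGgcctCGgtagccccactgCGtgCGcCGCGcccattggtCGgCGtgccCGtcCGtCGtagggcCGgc
Foxn3: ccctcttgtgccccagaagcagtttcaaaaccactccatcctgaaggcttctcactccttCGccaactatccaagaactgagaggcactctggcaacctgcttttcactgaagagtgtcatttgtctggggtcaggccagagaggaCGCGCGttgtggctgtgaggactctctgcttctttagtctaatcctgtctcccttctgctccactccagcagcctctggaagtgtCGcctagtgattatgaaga
Tbx20: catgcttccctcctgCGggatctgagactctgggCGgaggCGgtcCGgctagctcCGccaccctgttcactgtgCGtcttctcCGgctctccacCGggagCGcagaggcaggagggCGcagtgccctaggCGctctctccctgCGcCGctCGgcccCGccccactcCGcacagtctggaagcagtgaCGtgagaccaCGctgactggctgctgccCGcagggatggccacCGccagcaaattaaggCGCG
Foxn4: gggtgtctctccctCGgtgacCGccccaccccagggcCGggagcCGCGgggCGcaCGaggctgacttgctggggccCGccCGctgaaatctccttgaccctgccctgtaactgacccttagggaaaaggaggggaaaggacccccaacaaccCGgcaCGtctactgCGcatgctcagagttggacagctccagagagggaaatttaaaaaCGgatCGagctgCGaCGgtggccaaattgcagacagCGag
Sox6 upstream: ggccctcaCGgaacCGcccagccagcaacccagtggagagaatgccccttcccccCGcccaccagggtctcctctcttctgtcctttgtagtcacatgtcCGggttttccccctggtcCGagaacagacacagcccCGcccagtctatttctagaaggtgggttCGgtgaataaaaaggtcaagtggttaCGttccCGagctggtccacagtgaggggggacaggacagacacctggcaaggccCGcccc
Sox6 downstream: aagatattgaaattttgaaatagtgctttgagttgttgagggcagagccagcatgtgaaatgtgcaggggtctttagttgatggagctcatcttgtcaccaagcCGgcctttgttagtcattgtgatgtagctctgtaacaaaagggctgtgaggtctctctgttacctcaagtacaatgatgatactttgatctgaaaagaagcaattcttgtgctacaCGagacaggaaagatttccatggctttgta

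**Figure D2:**
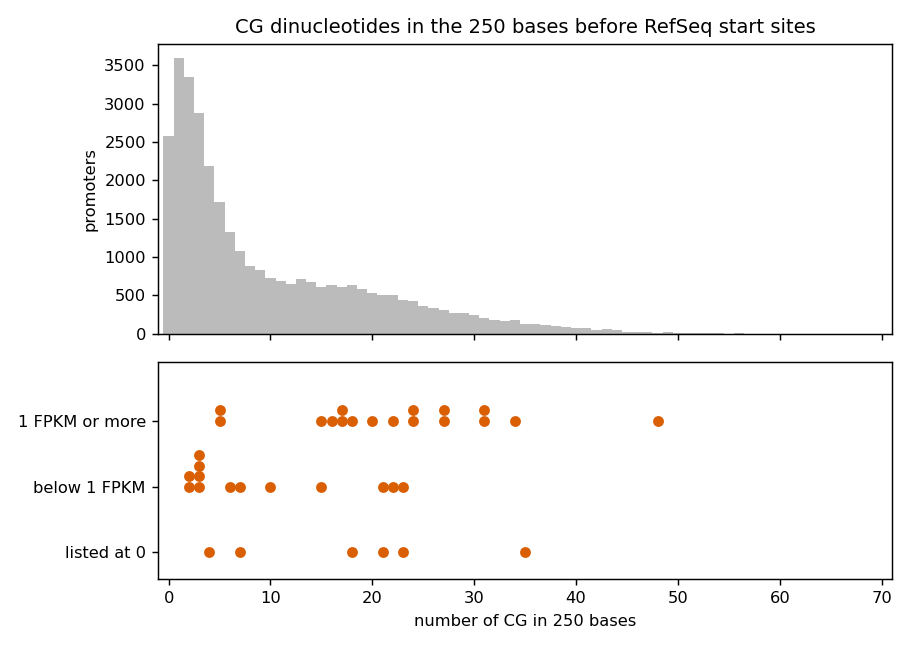
Number of CG dinucleotides in the 250 bases before RefSeq start sites, for all 32851 promoters as a histogram (top) and for the 36 members with a promoter as points grouped by their highest FPKM (bottom). Most promoters hold few CG, with a median of 6, and the members that reached 1 FPKM have a median of 22.

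Among the forkhead genes, Foxh1 had the highest level. It encodes the partner of Smad2 and Smad3 in Nodal signalling. Its level was 44.7 FPKM in WT, 49.4 FPKM in Pcgf1-/- and 33.9 FPKM in Pcgf1-/-+Pcgf1. The highest and lowest of these samples differed by less than 2-fold.

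The Foxo proteins are held out of the nucleus by insulin and Akt signalling. Foxo4 was at 19.2 FPKM in WT, 18.5 FPKM in Pcgf1-/- and 14.9 FPKM in Pcgf1-/-+Pcgf1. Foxo1 was at 7.92, 7.89 and 5.60 FPKM in the same order. Foxo3 was at 5.66, 7.74 and 5.22 FPKM, from first exons only, since its last exons were listed at 0 in all samples. All 3 genes were lowest in Pcgf1-/-+Pcgf1, and none of their ratios passed 2-fold. Foxo6, which is known from the brain, was listed at 0.

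Foxk1 and Foxk2 encode forkhead proteins with a phosphopeptide-binding domain. Foxk2 was at 21.2 FPKM in WT, 17.6 FPKM in Pcgf1-/- and 17.9 FPKM in Pcgf1-/-+Pcgf1. Foxk1 was lower, at 4.28, 5.02 and 4.41 FPKM. In WT and Pcgf1-/- these Foxk1 values come from first exons only, since its last exons were listed at 0 there. The log2 ratio of Pcgf1-/- over WT, taken here and throughout after addition of 0.1 FPKM, was -0.27 for Foxk2 and 0.22 for Foxk1. A ratio on this scale understates the difference of a gene with a low level.

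Foxp4 stood out among the well-expressed forkhead genes. It belongs to the Foxp group of transcriptional repressors that act in lung, gut and heart. Its level was 10.05 FPKM in WT, 18.2 FPKM in Pcgf1-/- and 8.87 FPKM in Pcgf1-/-+Pcgf1, so that Pcgf1-/- was the high sample. These are first-exon sums. Its last exons were listed at 0 in all samples, so no ratio could be taken from them. The log2 ratio was 0.85 for Pcgf1-/- against WT, short of 2-fold, and -1.03 for Pcgf1-/-+Pcgf1 against Pcgf1-/-. The latter no longer passed the limit after the samples were scaled to each other by the median of ratios. Foxp2, a gene known for its part in speech and brain circuits, was at 0.0353 FPKM in Pcgf1-/-+Pcgf1 and listed at 0 in the other samples.

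The Foxn and Foxj genes held both even and uneven levels. Foxn2 was at 7.15 FPKM in WT, 9.52 FPKM in Pcgf1-/- and 10.5 FPKM in Pcgf1-/-+Pcgf1. Foxn3, which is known to restrain the cell cycle after DNA damage, was at 5.55, 7.90 and 6.86 FPKM. Foxj3 was at 5.78, 6.79 and 6.92 FPKM. These 3 genes were lowest in WT, by less than 2-fold.

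Foxn4 and Foxj1 were low genes with uneven levels. Foxn4, which directs amacrine and horizontal cell fates in the retina, was at 0.464 FPKM in WT, 0.103 FPKM in Pcgf1-/- and 1.05 FPKM in Pcgf1-/-+Pcgf1. Its log2 ratio was -1.47 for Pcgf1-/- against WT and 2.51 for Pcgf1-/-+Pcgf1 against Pcgf1-/-. Foxj1, the regulator of motile cilia, was at 0.299 FPKM in WT, at 0.665 FPKM in Pcgf1-/-+Pcgf1, and was listed at 0 in Pcgf1-/-. In both genes Pcgf1-/- was the lowest sample.

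The lowest values of long genes with a single annotated transcript form a first pile, which gives the FPKM that 1 fragment is worth if that pile is taken as 1 fragment. Multiplied by length in kilobases it was 0.0517 for WT, 0.048 for Pcgf1-/- and then 0.0498 for Pcgf1-/-+Pcgf1. On that assumption Foxj1 would rest on 15.2 fragments in WT and 35.0 in Pcgf1-/-+Pcgf1. Foxo1, by contrast, would rest on 1328.8, 1423.4 and 974.7. Values below about 0.2 FPKM thus depend on few fragments.

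Of the other forkhead genes, Foxr1 and Foxi3 were at a medium level. Foxr1 was at 4.31 FPKM in WT, 6.51 FPKM in Pcgf1-/- and 2.98 FPKM in Pcgf1-/-+Pcgf1, with Pcgf1-/- the highest sample. Foxi3, which acts in ectodermal placodes, teeth and hair, was at 5.60, 3.60 and 4.65 FPKM, with Pcgf1-/- the lowest. The log2 ratio of Pcgf1-/-+Pcgf1 over Pcgf1-/- was -1.10 for Foxr1 and 0.36 for Foxi3. In WT the last exons of Foxr1 summed to 0.737 FPKM, and from last exons alone its log2 ratio was 2.98 for Pcgf1-/- against WT and 1.88 for Pcgf1-/-+Pcgf1 against WT. Foxr2, the X-linked gene next in name to Foxr1, was at 0.801, 0.123 and 0.694 FPKM. Its log2 ratio of Pcgf1-/- over WT was -2.01, the lowest among the members above 0 in both samples. Foxf2 and Foxi2 did not exceed 0.0817 FPKM in any sample.

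Among the Sox genes, Sox13 could be compared at a high level. It belongs to the SoxD group with Sox5 and Sox6, whose proteins lack a transactivation domain of their own. Its level was 17.2 FPKM in WT, 21.6 FPKM in Pcgf1-/- and 15.8 FPKM in Pcgf1-/-+Pcgf1, and no ratio passed 2-fold. These are last-exon sums, and the first exons summed to 9.83, 9.42 and 8.21 FPKM, from which the log2 ratio for Pcgf1-/- against WT turned from 0.32 to -0.06. Sox6, known from cartilage and red cell development, was at 0.336, 0.0713 and 0.285 FPKM, and Pcgf1-/- was the low sample. Sox5 was at 0.0131 FPKM in Pcgf1-/-+Pcgf1 and listed at 0 in the other samples.

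The SoxE genes Sox8, Sox9 and Sox10 act in neural crest, glia and gonad. Sox9, which also directs cartilage formation, was at 0.292 FPKM in WT, 0.0597 FPKM in Pcgf1-/- and 0.300 FPKM in Pcgf1-/-+Pcgf1. Sox10 was at 0.407, 0.459 and 1.26 FPKM. Sox8 was at 0.672, 0.639 and 1.02 FPKM. Sox9 was low in Pcgf1-/- alone, whereas Sox10 and Sox8 were highest in Pcgf1-/-+Pcgf1. The ratio of Pcgf1-/-+Pcgf1 over WT on the log2 scale was 0.03 for Sox9, 1.42 for Sox10 and 0.53 for Sox8. On the fragment scale above, Sox9 would rest on 23.3, 5.1 and 24.9 fragments. The exons of Sox8 share 329 bases with a gene on the opposite strand, 2810468N07Rik (1.996, 1.31 and 0.790 FPKM), and reads of the 2 genes may not be told apart there.

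Sox2 and Sox15 are the Sox genes best known from ES cells, and neither could be compared across the samples in the usual way. Sox2, which binds DNA together with Oct4 (Pou5f1), was at 29.3 FPKM in Pcgf1-/-+Pcgf1. In WT and Pcgf1-/- its locus was listed under several names, so it has no value there under the rule used. Sox15 was at 28.7 FPKM in Pcgf1-/-+Pcgf1 and was listed at 0 in WT and in Pcgf1-/-. Over all genes, 6 were at 10 FPKM or more in Pcgf1-/-+Pcgf1 alone and listed at 0 in both other samples, 5 were so in Pcgf1-/- alone and 6 in WT alone. The last exon of Sox15 shares 31 bases with Mpdu1 on the opposite strand, which was at 115.4, 97.7 and 103.2 FPKM. No fold is given for Sox15. Sox30, which acts in male germ cells, was at 0.233, 0.132 and 0.524 FPKM.

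Gata2 was the highest of the 3 Gata genes. It is required for blood stem cells. Its level was 0.636 FPKM in WT, 1.72 FPKM in Pcgf1-/- and 1.30 FPKM in Pcgf1-/-+Pcgf1. WT was the low sample, with a log2 ratio of 1.31 for Pcgf1-/- against WT, whereas Pcgf1-/-+Pcgf1 and Pcgf1-/- differed by -0.38. Gata1, the X-linked regulator of red cell genes, was at 0.266, 0.518 and 0.779 FPKM. Gata5, which acts in heart and endoderm, was at 0.0305 FPKM in WT and 0.135 in Pcgf1-/- and was listed at 0 in Pcgf1-/-+Pcgf1. Of 6 blood and endothelial markers, 0 were more than 2-fold higher in Pcgf1-/- than in WT and 2 were lower. The lower ones were Kdr, at 2.13 FPKM in WT and 0.198 FPKM in Pcgf1-/-, and Tal1, at 0.641 and 0.199 FPKM. Their log2 ratios were -2.90 and -1.31. Lmo2, at 2.18 FPKM in WT and 3.41 FPKM in Pcgf1-/-, and Gfi1b, at 1.57 and 2.25 FPKM, were higher within the limit. The median log2 ratio of the 6 markers was 0.10. The summed level of the 6 markers was 21.1, 21.5 and 23.9 FPKM. Most of it came from Pecam1, at 14.6 FPKM in WT and 15.5 FPKM in Pcgf1-/-, so the sum describes mainly that gene. The part of these markers in the Gata values was not tested.

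T-box genes held the largest differences towards higher levels in Pcgf1-/-. Tbx20, a regulator of heart development, was at 0.867 FPKM in WT, 2.66 FPKM in Pcgf1-/- and 0.865 FPKM in Pcgf1-/-+Pcgf1. Tbx1, which acts in the pharyngeal arches and the outflow tract of the heart, was at 0.214, 1.51 and 0.498 FPKM. In both genes Pcgf1-/- was the high sample. The log2 ratio of Pcgf1-/- over WT was 1.51 for Tbx20 and 2.36 for Tbx1, and that of Pcgf1-/-+Pcgf1 over Pcgf1-/- was -1.52 and -1.43. With respect to WT, Pcgf1-/-+Pcgf1 was level for Tbx20 and at a log2 ratio of 0.93 for Tbx1. Tbx20 was listed with the same first exon in all samples, the one whose promoter is printed above.

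Tbx21, known as T-bet from T helper cells, was at 0.670 FPKM in WT, 1.04 FPKM in Pcgf1-/- and 1.08 FPKM in Pcgf1-/-+Pcgf1. Tbx22, an X-linked gene of palate formation, was at 0.320, 0.068 and 0.160 FPKM, and its log2 ratio of Pcgf1-/- over WT was -1.32. From last exons alone, at 0.145 FPKM in WT, that ratio was -0.55 and did not pass the limit. Tbx15, which acts in the skeleton, was at 0.187, 0.213 and 0.987 FPKM. Tbx4, the T-box gene of the hindlimb, was at 0.361, 0.179 and 0.840 FPKM. Tbx15 and Tbx4 were highest in Pcgf1-/-+Pcgf1. From first exons alone Tbx4 was at 0.447 FPKM there, and its log2 ratio was 0.97 against Pcgf1-/- and 0.25 against WT, both within 2-fold. The limit on Tbx15 is given with its starts. The remaining T-box genes, Tbx2, Tbx5, Tbx10, Tbx18 and Tbx19, reached at most 0.169 FPKM.

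Taking all members above 0 in either sample, 9 of 36 differed by over 2-fold in Pcgf1-/- compared with WT, and the background was 13.6% of all genes. Higher in Pcgf1-/- were 3 members, Tbx1, Tbx20 and Gata2, against a background of 4.06%. Lower were 6 members, Foxj1, Foxn4, Foxr2, Sox6, Sox9 and Tbx22, against a background of 9.54%. The 3 higher members all reached 1 FPKM in Pcgf1-/-, and the 6 lower members were all below 1 FPKM in both samples. Restricted to at least 1 FPKM in either sample, 3 of 17 members were past the limit, and the background was 9.16%. The median log2 ratio over the 36 members was 0.143, and over all genes it was -0.120. The fibroblast markers had a median of -0.55 over 18 genes in the same comparison, although some of them were higher. Their part in the result was not tested. The called member nearest to the limit was Sox9, at -1.29. The nearest one not called was Foxf2, listed at 0 in Pcgf1-/- and at 0.0817 FPKM in WT.

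**Figure D3:**
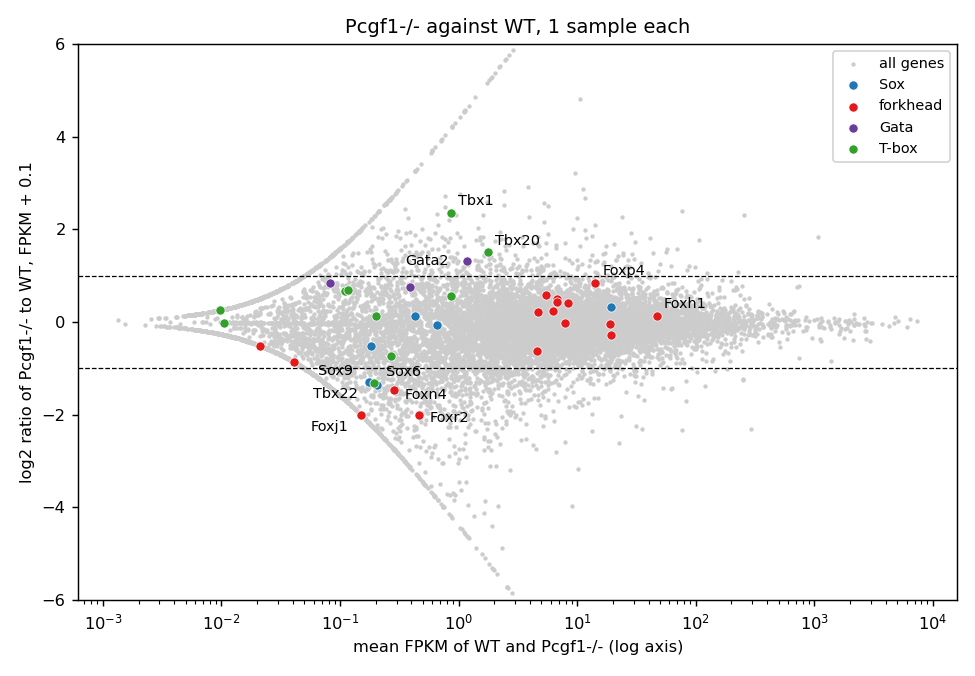
Log2 ratio of Pcgf1-/- over WT, from FPKM plus 0.1, against the mean FPKM of both samples on a log axis, for all genes (grey) and for members coloured by family, 1 sample each, with dashed lines at 2-fold. The members past 2-fold lie at low levels, and Foxh1, the highest, sits at 0.14. A total of 33 genes, none a member, lie beyond the vertical range of 6.

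Between Pcgf1-/-+Pcgf1 and Pcgf1-/-, 15 of 39 members differed more than 2-fold, with a background of 15.9%. Higher in Pcgf1-/-+Pcgf1 were 10 members, Foxj1, Foxn4, Foxr2, Sox6, Sox9, Sox10, Sox15, Sox30, Tbx4 and Tbx15, and the background in this direction was 11.7%. Lower were 5 members, Foxp4, Foxr1, Gata5, Tbx1 and Tbx20, and the background was 4.11%. With at least 1 FPKM in either sample it was 7 of 21 members, against 10.8% of all genes. From last exons alone Tbx15 was at -0.93, and from first exons alone Tbx4 was at 0.97. The median over the members was 0.046 and over all genes 0.054. Of the 18 fibroblast markers above 0, 7 were higher and 1 lower in the same comparison, and their part in the result was not tested. This comparison and the previous one share the Pcgf1-/- sample, so a value that is extreme in that sample moves both ratios in opposite directions.

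Between Pcgf1-/-+Pcgf1 and WT, 6 of 39 members differed more than 2-fold, all of them higher in Pcgf1-/-+Pcgf1, with a background of 11.6% in either direction. They were Foxn4, Gata1, Sox10, Sox15, Tbx4 and Tbx15, and the background of higher genes was 7.24%. No member was lower by this limit, for which the background was 4.34%. The lowest log2 ratios were -0.86 for Foxf2, -0.69 for Tbx22 and -0.52 for Foxr1, and that of Foxr1 was 1.88 from last exons alone. Apart from Sox15, which is listed at 0 in WT, the largest were 1.92 for Tbx15 and 1.42 for Sox10. Foxn4 and Tbx4 were at 1.03. From last exons alone Tbx15 was at -0.80, and from first exons alone Tbx4 was at 0.25. First exons alone gave 5 of 39 members, against 12.8% of all genes. Last exons alone gave 7 of 36, against 14.7%. All of these were higher, and they included Foxk1 at 5.49, whose last exons were listed at 0 in WT. With at least 1 FPKM in either sample it was 3 of 19 members, against 6.44% of all genes. The median over the members was 0.178 and over all genes -0.069.

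**Figure D4:**
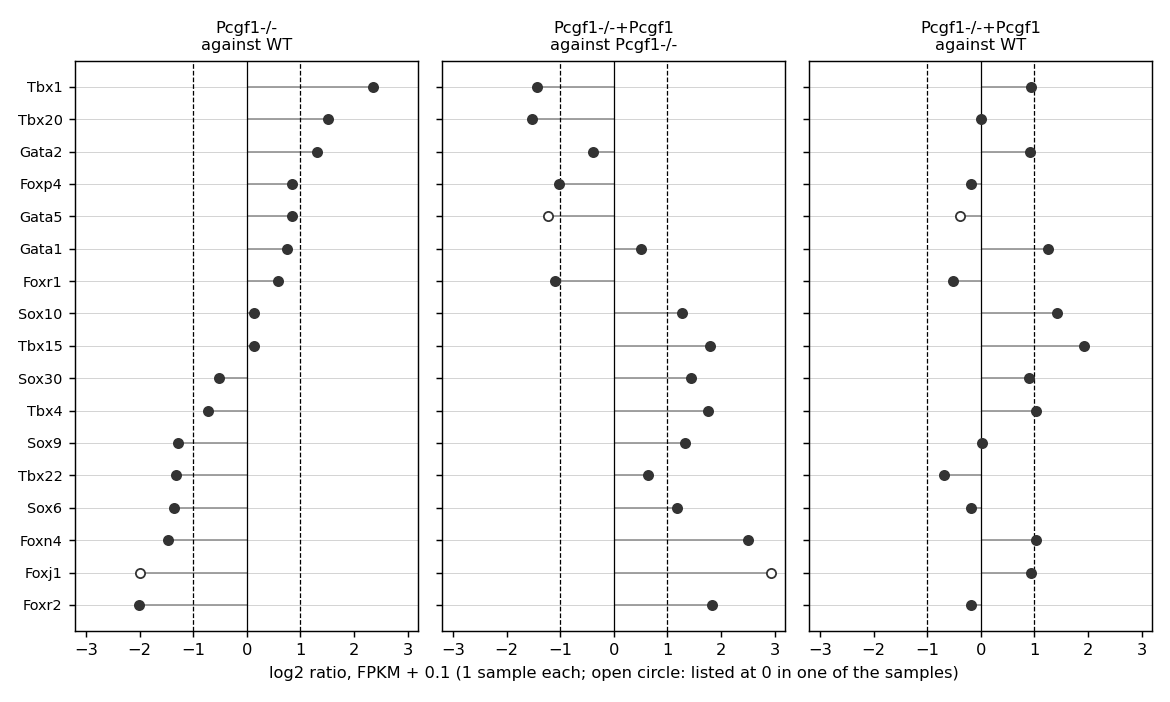
Log2 ratios (FPKM plus 0.1) of the 17 members past 2-fold in any comparison, Sox15 left out, for Pcgf1-/- against WT, Pcgf1-/-+Pcgf1 against Pcgf1-/- and Pcgf1-/-+Pcgf1 against WT, with dashed lines at 2-fold and open circles where 1 sample was listed at 0. Tbx1 and Tbx20 lie at 2.36 and 1.51 on the left and at -1.43 and -1.52 in the middle, where the same Pcgf1-/- sample is the divisor.

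Beyond levels, the lists give the FPKM of each first exon, and several members were assigned to more than 1 start. Transcripts were assembled in each sample, so a start listed in 1 sample alone can reflect the assembly of that sample. Starts are numbered here from 5′ to 3′, and starts within 100 bases were joined. Foxh1 was listed from its second start, at 76669592 of chromosome 15, for 55.7% of its FPKM in WT and from its first start, at 76669948, for 100% in the other samples. In Pcgf1-/- and Pcgf1-/-+Pcgf1 an internal exon of Foxh1 had 2 forms of 93 and 105 bases. The shorter form carried 19.4 and 17.0 FPKM, and the longer form 29.98 and 16.8.

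Foxo3 and Foxj3 showed a like split in WT. Foxo3 was divided over 3 starts in WT, with 42.4%, 41.7% and 15.9% of its FPKM, whereas Pcgf1-/- used the first start for 100% and Pcgf1-/-+Pcgf1 for 79.9%. Foxj3 used the third of its starts for 55.3% of its FPKM in WT and its second start for 100% in the other samples. A second start of Sox13 held 30.5% of the first-exon FPKM in WT and 0 in the other samples. With 1 sample of each kind, the split in WT cannot be told apart from differences between libraries.

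Foxp4 was different in that the knockout and the re-expressing sample shared an additional start. Its most downstream start, at 47888433 of chromosome 17 and downstream of the first at 47924645, held 0 of the FPKM in WT, 29.1% of it in Pcgf1-/- and 30.2% of it in Pcgf1-/-+Pcgf1. The first start alone was at 10.05, 12.9 and 4.78 FPKM, so the higher level of Foxp4 in Pcgf1-/- was distributed over both starts. Foxn3 used its first start for 44.5% in WT, 24.4% of it in Pcgf1-/- and 54.9% of it in Pcgf1-/-+Pcgf1.

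Sox6 and Tbx15, both low, changed their listed start between samples. Sox6 was listed for 83.1% of its FPKM from the downstream start in WT, and for 100% of it in Pcgf1-/- and 79.8% of it in Pcgf1-/-+Pcgf1 from the upstream start, as in the sequences above. Tbx15 was listed from the third of its starts for 100% in WT and in Pcgf1-/-, and from its first start for 93.5% in Pcgf1-/-+Pcgf1. Its last exons summed to 0.0643 FPKM in Pcgf1-/-+Pcgf1, against 0.187 in WT and 0.213 in Pcgf1-/-, so the higher level of Tbx15 in that sample was seen in first exons only. In Gata1, a first start held 55.4% of the FPKM in Pcgf1-/-+Pcgf1 and 0 in the other samples.

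**Figure D5:**
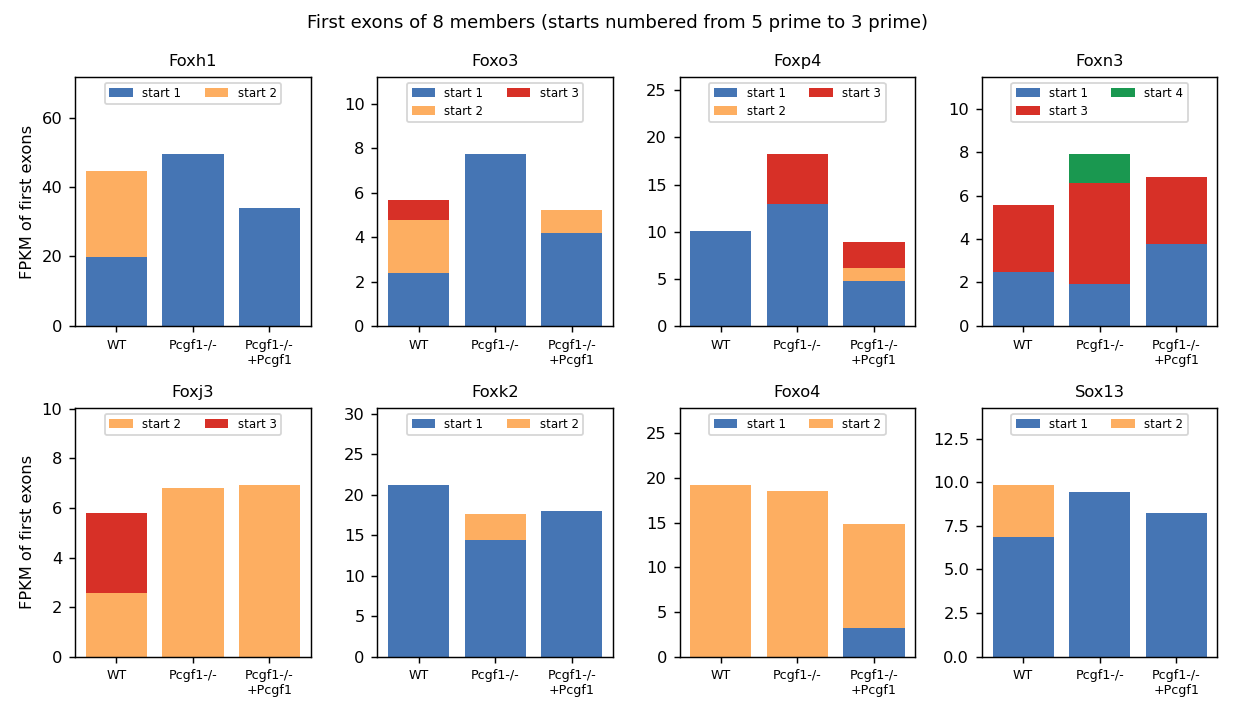
FPKM of the first exons of 8 members in the 3 samples, as bars stacked by start, with starts numbered from 5′ to 3′ and 1 sample per bar. Foxh1, Foxo3, Foxj3 and Sox13 have a start in WT that is not used in Pcgf1-/-, and the third start of Foxp4 is seen in Pcgf1-/- and Pcgf1-/-+Pcgf1 but is at 0 in WT.

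Skipped exons were listed for few members at a level that allows a comparison. In Foxn2, an exon of 69 bases was included in 82.5% of the FPKM in WT, 76.1% of it in Pcgf1-/- and 74.4% of it in Pcgf1-/-+Pcgf1. In Foxj3, an exon of 102 bases was included in 44.7%, 41.2% and 32.9%. Both exons are a multiple of 3 in length. In Foxn3, an exon of 66 bases was included in 45.1% of the FPKM in Pcgf1-/-+Pcgf1 and in 0 in the other samples. Its 3.10 FPKM there equals the value of the third Foxn3 start in that sample. In WT the Foxj3 exon, at 2.59 FPKM, likewise equals the second Foxj3 start. These shares are therefore not separate from the split of starts given above. The depth behind these shares is unknown, and no interval can be given.

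Genes outside the name rule that belong to the same families or work with them were mostly level. Of 21 such genes 15 were listed in all samples. In Pcgf1-/- against WT, 0 of 15 were more than 2-fold higher and 1 was lower, Zfpm2, which encodes the Gata partner Fog2 and was at 1.04 FPKM in WT, 0.177 FPKM in Pcgf1-/- and 0.388 FPKM in Pcgf1-/-+Pcgf1. Eomes, a T-box gene of mesendoderm, was at 1.39, 2.195 and 1.22 FPKM. Mga, a T-box protein of the PRC1.6 complex, was at 16.8, 17.8 and 17.1 FPKM. Smad2 and Smad4, the partners of Foxh1, were at 13.3 to 13.9 and 13.5 to 18.2 FPKM. Akt1, the kinase upstream of the Foxo proteins, was at 25.7, 36.1 and 26.6 FPKM.

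Neural markers, which would accompany Sox and forkhead genes of that lineage, did not move past the limit. Of 6 such markers, 0 of the 5 above 0 were higher and 0 lower in Pcgf1-/- than in WT. Pax6 was at 0.503, 0.292 and 0.584 FPKM, and Hes5 and Neurog2 were also lower in Pcgf1-/- than in WT. Nes, at 3.29, 4.81 and 3.05 FPKM, and Olig2, at 39.0, 43.1 and 22.0 FPKM, were higher. The summed level of the 6 markers was 43.1, 48.5 and 26.2 FPKM, and most of it came from Olig2.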

How the data were processed

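Poly-A RNA-seq of 1 sample per condition was used. The deposited files are 1 table of transcript events per sample with FPKM values from the authors, in which each first exon, last exon or skipped exon carries the FPKM of the transcripts that hold it. The submitters' processing notes name TopHat2 2.0.12, Cufflinks 2.2.1, HTSeq 0.6.0 and the build mm10. The program that made the event lists is not given in the sources used here. The value of a gene was the larger of its summed first-exon and summed last-exon FPKM, and 40 of the 50 members had equal sums in every sample. Loci with several names were left out, and so were 23 symbols that had turned into dates.

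Ratios are of log2(FPKM + 0.1), and a gene was called above 2-fold, among genes above 0 in either sample. With 1 sample per condition and no counts no test was run. The code of the calling step was run on simulated data with large planted changes, little noise and no genes at low levels. Its outcome was fixed by that design, and it says nothing about calls at low levels. The members and lists were chosen with earlier results of these data known. Named with values were all members of at least 1 FPKM in any sample, members of at least 0.2 FPKM past 2-fold between Pcgf1-/- and WT, the 3 largest ratios each way between Pcgf1-/-+Pcgf1 and WT, and the members beside the limit. Other members named with values were chosen after their values were seen. GENCODE vM21 and RefSeq gave positions. The software was Python 3.11.15, numpy 2.4.6, pandas 2.3.3 and matplotlib 3.10.9.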

Additional observations from a re-analysis of the deposited data

How the results depend on the processing

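The counts of members past 2-fold depended on the treatment of low values. For Pcgf1-/- against WT, Pcgf1-/-+Pcgf1 against Pcgf1-/- and Pcgf1-/-+Pcgf1 against WT, in this order, 36, 39 and 39 members were above 0. A pseudocount of 0.01 FPKM gave 15, 23 and 16 members, against 24.4%, 26.6% and 21.6% of all genes. A pseudocount of 1 FPKM gave 1 in each, against 3.43%, 4.26% and 2.38%. A minimum of 1 FPKM in either sample gave 3 of 17, 7 of 21 and 3 of 19, against 9.16%, 10.8% and 6.44%. The median log2 ratio of the members was 0.04 and 0.03 with a pseudocount of 1 FPKM in the first and the last comparison. With at least 1 FPKM it was 0.41, -0.20 and 0.04 in the 3 comparisons. The limit to genes above 0 in both samples, chosen after seeing the data, gave 8 of 32, 12 of 30 and 5 of 32 members. The share of all genes was 10.3%, 12.2% and 8.04%. With a pseudocount of 1 FPKM the member still past the limit in the last 2 comparisons was Sox15, which is listed at 0 in the divisor, and in the first it was Tbx1.

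The scaling by the median of ratios over 8622 genes gave 9, 14 and 9 members, with factors between 0.966 and 1.05. The share of all genes past the limit was then 13.3%, 16.2% and 11.8%. From last exons alone, Tbx15 in Pcgf1-/-+Pcgf1 reversed, to -0.93 against Pcgf1-/- and -0.80 against WT. Foxr1 reversed to 1.88 against WT in the same sample, and Foxk1 to 5.49 against Pcgf1-/-, where its last exons were listed at 0. Against WT, where they were listed at 0 too, Foxk1 newly passed the limit, also at 5.49. Foxr1 for Pcgf1-/- against WT passed the limit, at 2.98, and Tbx22 no longer did, at -0.55. From first exons alone Tbx4 lost both its calls, at 0.97 and 0.25. For 33 members, those named by the rule or past 2-fold in a comparison, 520 ratios were computed under the alternatives. Of these, 466 kept their sign and their side of the limit, 5 changed sign without passing it (0.32 or less in size), 31 no longer passed it, 14 newly passed it and 4 reversed. Part of the 466 could not change. The 57 ratios under the minimum of 1 FPKM are the main ratios again. First or last exons alone also return the main ratio where the first-exon and last-exon sums are equal. Leaving out a sample was not possible, since each condition has 1. No paired analysis was possible because each group has 1 sample and only 1 replicate number. The depth is unknown, and members below about 0.2 FPKM rest on few fragments.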
